A study of Mus musculus with 10 samples.

Results

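The T cell receptor complex and its proximal signalling machinery were described here through 35 genes, chosen by name and role from the 56893 genes of the count table, with earlier results of these data known but by no threshold on a measured value. They were the invariant receptor chains, the coreceptors, surface receptors that aid or restrain signalling, kinases and phospholipase, adaptors and exchange factors, and enzymes and adaptors that hold the pathway back. All 35 were found in the table. The polyadenylated RNA of primary spleen lymphocytes had been sequenced after CRISPR interference against Pou2f1 promoters, in which a guide RNA brings a catalytically dead Cas9 to a promoter and lowers its transcription. Pou2f1 encodes Oct-1, a transcription factor that binds octamer motifs.

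The 5 groups were T cells that received sgRNA-P1, mock T cells, B cells with sgRNA-P1, B cells with sgRNA-P2, and mock B cells. All were labelled as primary cells of mouse spleen, and the guides are named for the P1 and P2 promoters. The sources used here do not state strain, age, number of animals, the way cells were selected, the form in which Cas9 was delivered or the time after delivery. The paired count columns of a group (2 each) agreed more closely than sampling noise allows, and their sum was treated as 1 sample. Summed libraries held 39352816 reads (T, sgRNA-P1), 71858511 (T, mock), 49066261 (B, sgRNA-P1), 28118839 (B, sgRNA-P2) and 33842813 (B, mock). With 1 library per group, no difference between single groups has a replicate check. Brackets give 95% counting intervals of these libraries, which cover counting error only. Levels are given in CPM, read counts relative to library size after TMM scaling. Levels of different genes are compared in TPM, which also divides by exon length.

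Pou2f1 itself was at 66.1 CPM in T cells with sgRNA-P1, against 138 CPM in mock T cells, a log2 fold change of -1.06 [-1.15, -0.97]. In B cells it was at 91.1 CPM with sgRNA-P1 and 86.5 CPM with sgRNA-P2, against 157 CPM in mock cells. The log2 fold changes were -0.78 [-0.86, -0.70] with sgRNA-P1 and -0.86 [-0.96, -0.76] with sgRNA-P2. All 3 guide libraries lay below both mock libraries. The 8 T identity genes that are not among the 35 summed to 4937 and 5080 CPM in T libraries, against 10.2 to 11.5 CPM in B libraries. The 10 B identity genes summed to 347 and 366 CPM in T libraries, of which Ighm gave 323 and 341 CPM, against 19309 to 19783 CPM in B libraries. Markers of NK cells summed to 132 and 133 CPM in T libraries, against 18.4 to 18.9 CPM in B libraries. Of the 10 NK markers, 3 were at 5 CPM or more in both T libraries. Klrd1, a lectin-like receptor, was at 53.3 and 51.2 CPM in T cells with sgRNA-P1 and mock, against 0.889 to 1.21 CPM in B libraries. Prf1 (perforin) was at 37.6 and 40.3 CPM in those T libraries, against 6.06 to 6.69 CPM in B libraries, and Eomes, a T-box factor, at 31.8 and 32.5 CPM, against 0 CPM in every B library. Tyrobp, also on the NK list, went the other way, at 0.401 and 0.291 CPM in those T libraries, against 9.83 to 10.1 CPM in B libraries. Ncr1 was 1 of 4 markers under 1 CPM in each T library, and the part of NK cells in the levels below was not tested. Myeloid markers summed to 9.19 to 18.6 CPM across the 5 libraries.

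As background, a T cell reads antigen through an antigen-binding receptor that has no signalling tail of its own. It is carried by the CD3 and zeta chains, whose tyrosine motifs are phosphorylated by Lck, held near the complex by the coreceptors CD4 and CD8. ZAP-70 docks on those motifs and phosphorylates the scaffolds LAT and SLP76, on which phospholipase, adaptors and exchange factors assemble to raise calcium and activate Ras and NF-kB. Csk, PAG and phosphatases of the PTPN22 and UBASH3 families keep the first steps quiet in resting cells. B cells build a parallel pathway on CD79, Lyn, Syk, BLNK and phospholipase C gamma 2.

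**Figure D1:**
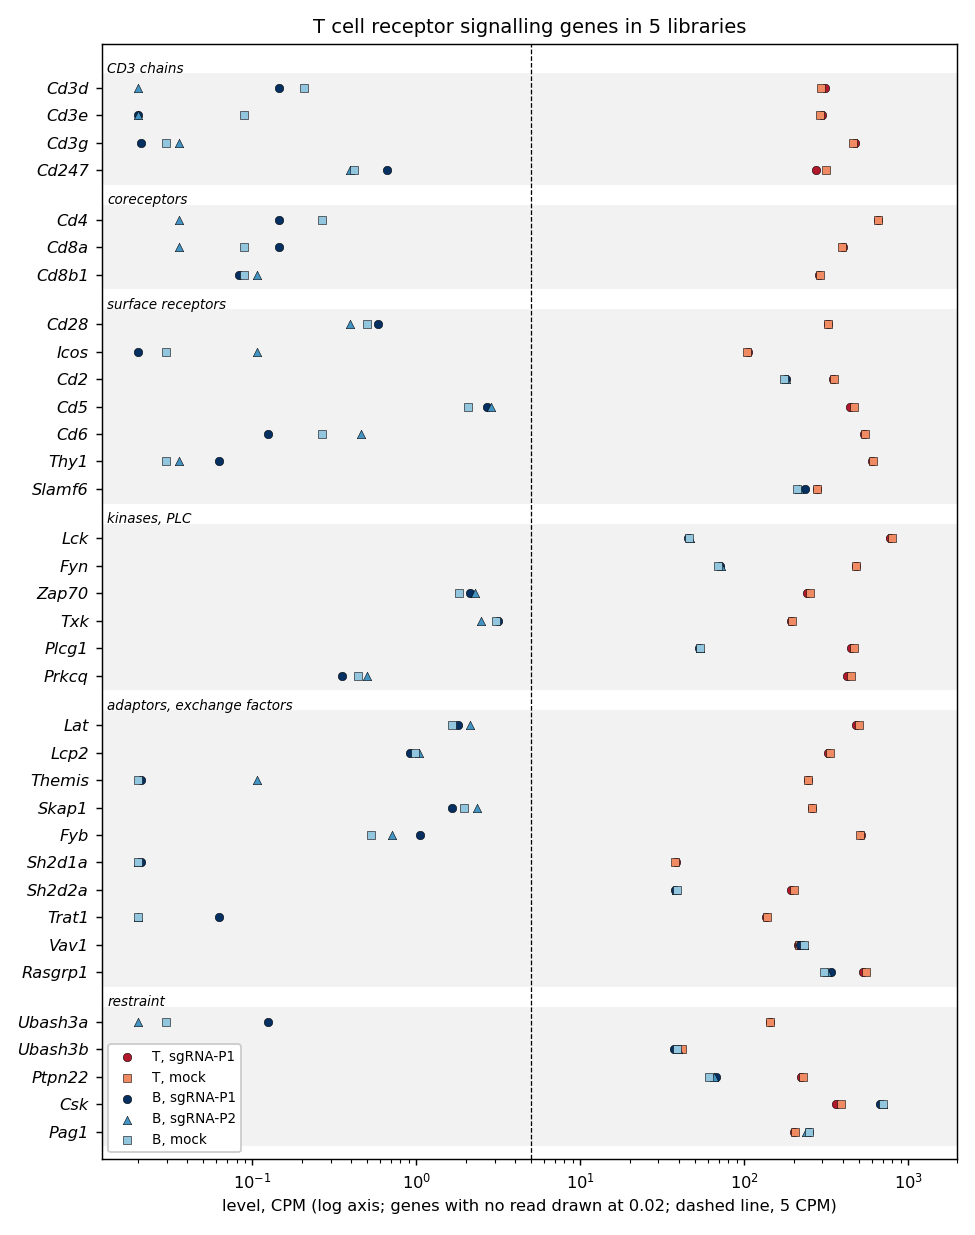
Level of each of the 35 genes in CPM (log axis) in the 5 libraries, 1 point per library, grouped by role; genes without a read are drawn at 0.02 CPM and the dashed line marks 5 CPM. All 35 genes lie right of the line in both T libraries (red), while 12 do so in all 3 B libraries (blue).

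All 35 genes were expressed in T cells, and most were nearly silent in B cells. Every one reached 5 CPM in both T libraries, with levels of 37.7 to 803 CPM. In B libraries, 16 genes stayed under 1 CPM in all 3 libraries, 7 peaked between 1 and 5 CPM, and 12 reached 5 CPM in all 3. In 32 genes both T libraries lay above all 3 B libraries (background 42.6% of genes), in 3 both lay below (background 40.1%), and no gene overlapped. Lower levels in bulk RNA can come from fewer cells that express a gene or from less RNA per cell, and these cannot be told apart.

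Among mock cells, 29 of the 35 exceeded their B cell level in T cells by 2-fold or more and 0 were lower, where 12.3% and 12.2% of 10804 genes passed in each direction. The median log2 fold change was 8.37, against 0.02 over all genes tested. In the pair of libraries with sgRNA-P1, which shares no library with the mock pair, 28 were higher (background 12.4%) and 0 were lower (background 12.8%), with a median of 8.44 against 0.02 over all genes. Across the 5 libraries, a quasi-likelihood test in edgeR, with terms for cell type and guide, called 31 genes higher in T cells and 2 lower, at a Benjamini-Hochberg adjusted p of 0.05 over 17581 genes. The same test called 32.4% of all genes higher and 31.8% lower. The 35 were chosen as T cell receptor genes, and 23 of them stayed under 5 CPM in every B library. Those 23 passed the 5 CPM filter only through their T level, so the counts in this paragraph are a description.

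The chains that carry the receptor's signal were abundant in T cells and had few or no reads in B cells. Cd3d was at 311 CPM in T cells with sgRNA-P1 and 294 CPM in mock T cells, against 0.145, 0 and 0.207 CPM in B cells with sgRNA-P1, sgRNA-P2 and mock. Cd3e was at 297 and 289 CPM in T cells with sgRNA-P1 and mock, and its only B library with reads was the mock one, with 3 reads. Cd3g was at 472 and 463 CPM in those T libraries and had 1 read in each B library. Cd247, which encodes the zeta chain, was at 273 and 314 CPM in T cells with sgRNA-P1 and mock, against 0.664, 0.391 and 0.414 CPM in B cells with sgRNA-P1, sgRNA-P2 and mock. The 4 genes together made up 1353 and 1361 CPM in T libraries and less than 1 CPM in each B library. Per length, the chains were not equally abundant in T cells. Cd3d was at 619 and 584 TPM with sgRNA-P1 and mock, Cd3g at 522 and 510 TPM, Cd3e at 263 and 255 TPM and Cd247 at 185 and 212 TPM.

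The CD3 genes lie together in the deposited coordinates. Cd3g (chromosome 9, 44880870 to 44891729, minus strand) and Cd3d (44893084 to 44898637, plus strand) are divergent, with starts 1.355 kb apart, and Cd3e (44910038 to 44920925, minus strand) lies 11.4 kb beyond Cd3d. Cd8b1 and Cd8a are 35.9 kb apart on chromosome 6, and Cd6 and Cd5 are 50.3 kb apart on chromosome 19.

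Promoter sequence was at hand for 24 of the 35 genes, in 32 windows of 300 bases (250 before and 50 after a transcript start; RefSeq, GRCm38.p6, another build than the deposited coordinates). Windows were not at hand for Cd4, Cd8b1, Cd28, Icos, Cd2, Cd6, Thy1, Skap1, Sh2d1a, Sh2d2a and Pag1. Windows of Cd3d and Cd3e, receptor chains, and of Lck, the kinase that phosphorylates those chains, are shown because they carry an ETS match. That match was found in 18.8% of the 32 windows, against 4.07% of 32851 windows of all genes. Another Lck window (129573592 to 129573891) held no such match and is not shown. Capitals mark the ETS letters AGGAAGTG and the TCF/LEF letters CTTTGA on either strand, 5′ to 3′ along each gene's strand.
Cd3d, chr9:44981536-44981835, plus strand: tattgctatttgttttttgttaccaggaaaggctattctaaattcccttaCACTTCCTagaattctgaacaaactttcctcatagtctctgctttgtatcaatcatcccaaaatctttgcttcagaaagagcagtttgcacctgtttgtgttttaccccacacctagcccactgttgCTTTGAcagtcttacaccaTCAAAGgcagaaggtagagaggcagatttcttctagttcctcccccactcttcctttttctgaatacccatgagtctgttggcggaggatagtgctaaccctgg
Cd3e, chr9:45009562-45009861, minus strand: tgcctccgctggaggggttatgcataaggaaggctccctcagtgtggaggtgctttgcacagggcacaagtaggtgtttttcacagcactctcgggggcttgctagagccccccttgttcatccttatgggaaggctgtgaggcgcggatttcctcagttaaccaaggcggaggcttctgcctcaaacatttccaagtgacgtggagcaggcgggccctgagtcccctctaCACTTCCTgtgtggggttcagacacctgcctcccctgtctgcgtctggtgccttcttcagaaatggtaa
Lck, chr4:129558323-129558622, minus strand: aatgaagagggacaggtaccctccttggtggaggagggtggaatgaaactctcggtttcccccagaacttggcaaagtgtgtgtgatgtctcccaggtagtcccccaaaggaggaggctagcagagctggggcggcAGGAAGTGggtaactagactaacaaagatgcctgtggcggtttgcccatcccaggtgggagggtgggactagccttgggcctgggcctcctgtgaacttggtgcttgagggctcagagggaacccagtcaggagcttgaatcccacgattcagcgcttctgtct

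In these windows the ETS match lies 200 bases before the start in Cd3d, 19 before it in Cd3e and 114 before it in Lck. The other 3 genes with that match were Cd247, Txk and Vav1. Of these, Vav1 had both T libraries below all 3 B libraries. The octamer ATGCAAAT, the motif that Oct-1 binds, was in 0 of the 32 windows, against 1.74% of all windows. The E box CAGGTG was in 14 of the 32 windows (43.8%, against 20.2% of all windows), TCF/LEF CTTTGA in 7 (21.9%, against 16.0%) and RUNX TGTGGT in 6 (18.8%, against 16.8%). Other ETS letters went the other way: CCGGAA was in 3.12% of the 32 windows, against 14.9% of all windows, and ACCGGAAG, which holds it, in 0%, against 2.30%. The palindromic E box CACGTG was in 6.25% (against 7.15%), the GC box GGGCGG in 25% (against 35.7%) and the TATA letters TATAAA in 6.25% (against 13.6%). All were read on both strands, and a match is a description of letters and not of binding.

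Both coreceptor classes were present in the T libraries. Cd4, the class II coreceptor, was at 655 and 656 CPM in T cells with sgRNA-P1 and mock, against 0.145, 0.0356 and 0.266 CPM in B cells with sgRNA-P1, sgRNA-P2 and mock. Cd8a, 1 chain of the class I coreceptor, was at 401 and 396 CPM in those T libraries, and Cd8b1, its partner chain, at 285 and 290 CPM. Neither CD8 gene passed 0.15 CPM in a B library. Per length, Cd4 was 1.47 and 1.49 times Cd8a in T cells with sgRNA-P1 and mock, but 0.844 and 0.832 times Cd8b1. Each ratio was close in both libraries.

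The surface receptors split into genes nearly silent in B libraries and genes expressed in both cell types. Cd28, the main costimulatory receptor, was at 324 CPM in both T libraries, against 0.581, 0.391 and 0.503 CPM in B cells with sgRNA-P1, sgRNA-P2 and mock. Icos, its inducible relative, was at 105 and 104 CPM in T cells with sgRNA-P1 and mock and no higher than 0.107 CPM in a B library. Thy1, a glycolipid-anchored T cell surface protein, was at 603 and 607 CPM in T libraries, and Cd6, a scavenger-type receptor, at 539 and 549 CPM. Both were under 0.5 CPM in every B library. Cd5, a receptor that restrains antigen signalling, was at 439 and 467 CPM in T cells with sgRNA-P1 and mock, against 2.70, 2.84 and 2.07 CPM in B cells with sgRNA-P1, sgRNA-P2 and mock.

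Cd2 and Slamf6, adhesion receptors of the CD2 and SLAM families, were well expressed in both cell types. Cd2 was at 346 and 352 CPM in T cells with sgRNA-P1 and mock, against 180, 181 and 175 CPM in B cells with sgRNA-P1, sgRNA-P2 and mock. Its log2 fold change of T over B was 1.01 [0.96, 1.07] in mock cells and 0.95 with sgRNA-P1, either side of the 2-fold line. Slamf6 was at 278 and 277 CPM in those T libraries, against 235, 216 and 211 CPM in those B libraries, with a log2 fold change of 0.39 [0.34, 0.45] in mock cells. Both were called higher in T cells by edgeR over the 5 libraries, with adjusted p of 8.7e-11 for Cd2 and 6.9e-05 for Slamf6.

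All 6 kinase and phospholipase genes passed the 2-fold line with higher levels in T cells, but 3 of the 6 kept a readable level in B cells. Lck was the most abundant of the 35 genes per length, at 954 and 987 TPM in T cells with sgRNA-P1 and mock, where 121 and 117 genes stood above it. In CPM it was at 773 and 803 in those T libraries, against 45.2, 46.8 and 46.1 in B cells with sgRNA-P1, sgRNA-P2 and mock, a ratio of 17.4 [16.2, 18.7] in mock cells. Fyn, the related Src kinase, was at 479 and 484 CPM in T libraries, against 71.3, 71.7 and 69.6 CPM in B libraries. Plcg1, which cleaves membrane phosphoinositide, was at 450 and 466 CPM in T cells with sgRNA-P1 and mock, against 52.8, 53.9 and 54.1 CPM in B cells with sgRNA-P1, sgRNA-P2 and mock. The B libraries of each of these genes differed from each other by no more than 3.51% while T and B libraries stood far apart.

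Zap70, Txk and Prkcq were close to absent in B cells. Zap70 was at 241 and 250 CPM in T cells with sgRNA-P1 and mock, against 2.12, 2.28 and 1.83 CPM in B cells with sgRNA-P1, sgRNA-P2 and mock. Txk, a Tec family kinase, was at 193 and 197 CPM in those T libraries, against 3.15, 2.49 and 3.07 CPM in those B libraries. Prkcq, which encodes protein kinase C theta and links the receptor to NF-kB, was at 426 and 446 CPM in T libraries and at 0.353 to 0.498 CPM in B libraries.

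Of the 10 adaptors and exchange factors, 8 passed the 2-fold line in both library pairs, all with the T library higher. Lat, the membrane scaffold, was at 482 and 501 CPM in T cells with sgRNA-P1 and mock, against 1.78, 2.13 and 1.66 CPM in B cells with sgRNA-P1, sgRNA-P2 and mock. Lcp2, which encodes SLP76, was at 325 and 333 CPM in T libraries and at 0.913 to 1.03 CPM in B libraries. Fyb (ADAP) and Skap1, which connect the receptor to integrins, were at 514 and 512 CPM and at 260 and 258 CPM in T cells with sgRNA-P1 and mock. In B libraries Fyb was at 0.532 to 1.06 CPM and Skap1 at 1.66 to 2.35 CPM.

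Themis, Trat1 and Sh2d1a had no read in mock B cells. Themis, needed for T cell development, was at 246 CPM in both T libraries. Its mock T level was 2770 times a floor of 3 reads per library. For each of these genes the upper counting limit in mock B cells was 0.218 CPM, which lies above that floor. Multiples of the floor are therefore not minimum differences. Trat1, an adaptor of the receptor complex, was at 135 and 137 CPM in T libraries, with a mock T level 1544 times the same floor. Sh2d1a (SAP), an adaptor of SLAM receptors, was the lowest of the 3 in T cells at 38.6 and 37.7 CPM, 425 times that floor in mock T cells. Sh2d2a (TSAd), which binds Lck, was at 194 and 202 CPM in T cells with sgRNA-P1 and mock, against 37.6, 38.6 and 39.0 CPM in B cells with sgRNA-P1, sgRNA-P2 and mock.

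The exchange factors were shared. Rasgrp1, which loads Ras with GTP, was at 534 and 554 CPM in T cells with sgRNA-P1 and mock, against 340, 322 and 309 CPM in B cells with sgRNA-P1, sgRNA-P2 and mock. The log2 fold change of T over B was 0.84 [0.80, 0.89] in mock cells. Vav1, an exchange factor phosphorylated after receptor engagement, was at 212 and 215 CPM in those T libraries, against 218, 232 and 233 CPM in those B libraries. The edgeR test did not call Vav1 (log2 fold change -0.11, adjusted p = 0.058). Without the B library with sgRNA-P1 it was called, at -0.14 with adjusted p = 0.0034.

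The genes that hold the pathway back had the lowest median log2 fold change of T over B among the 6 roles, 0.08 in mock cells. Single genes of that role ran from -0.87 (Csk) to 11.25 (Ubash3a). Cd5 (7.80), which also restrains signalling, was placed with the surface receptors. Csk, the kinase that inhibits Src family kinases, was at 365 and 387 CPM in T cells with sgRNA-P1 and mock, against 675, 703 and 706 CPM in B cells with sgRNA-P1, sgRNA-P2 and mock. Pag1, the membrane adaptor that recruits Csk, was at 200 and 205 CPM in those T libraries, against 237 to 250 CPM in B libraries. Both were called lower in T cells by edgeR, with log2 fold changes of -0.91 (adjusted p = 4.0e-10) for Csk and -0.29 (adjusted p = 8.5e-05) for Pag1. Csk has a transcript GC content of 60.1%, and after a trend with length and GC content was subtracted its mock difference passed 2-fold, at -1.25.

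Ptpn22, a phosphatase that acts on Lck and ZAP-70, was at 222 and 228 CPM in T cells with sgRNA-P1 and mock, against 67.3, 65.1 and 61.3 CPM in B cells with sgRNA-P1, sgRNA-P2 and mock. The UBASH3 paralogs parted from each other. Ubash3a was at 144 CPM in both T libraries and at most 0.124 CPM in a B library. Ubash3b was at 39.6 and 41.5 CPM in T cells with sgRNA-P1 and mock, against 37.4, 39.2 and 39.2 CPM in B cells with sgRNA-P1, sgRNA-P2 and mock, and edgeR did not call it (log2 fold change 0.05, adjusted p = 0.50). Summed over the 5 restraint genes, T libraries held 970 and 1007 CPM and B libraries 1028 to 1056 CPM.

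The B cell levels of the shared genes were set beside those of T cell identity genes in the same libraries. In mock cells, 7 of the 8 identity genes outside the list, Tcf7, Trbc2, Il7r and Trac among them, were in B cells at 0.0818% or less of their T level, and Lef1 was at 2.15%. Lck was at 5.75%, Plcg1 at 11.6%, Fyn at 14.4%, Sh2d2a at 19.3% and Ptpn22 at 26.9% of their T level in mock B cells. Cd3g and Thy1 were at 0.00638% and 0.00487%. The lower percentages of Zap70 (0.732%), Skap1 (0.757%), Cd5 (0.443%) and Lat (0.330%) also lay above those of the identity genes other than Lef1. The part that T cells among the B cells have in these low levels was not tested.

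**Figure D2:**
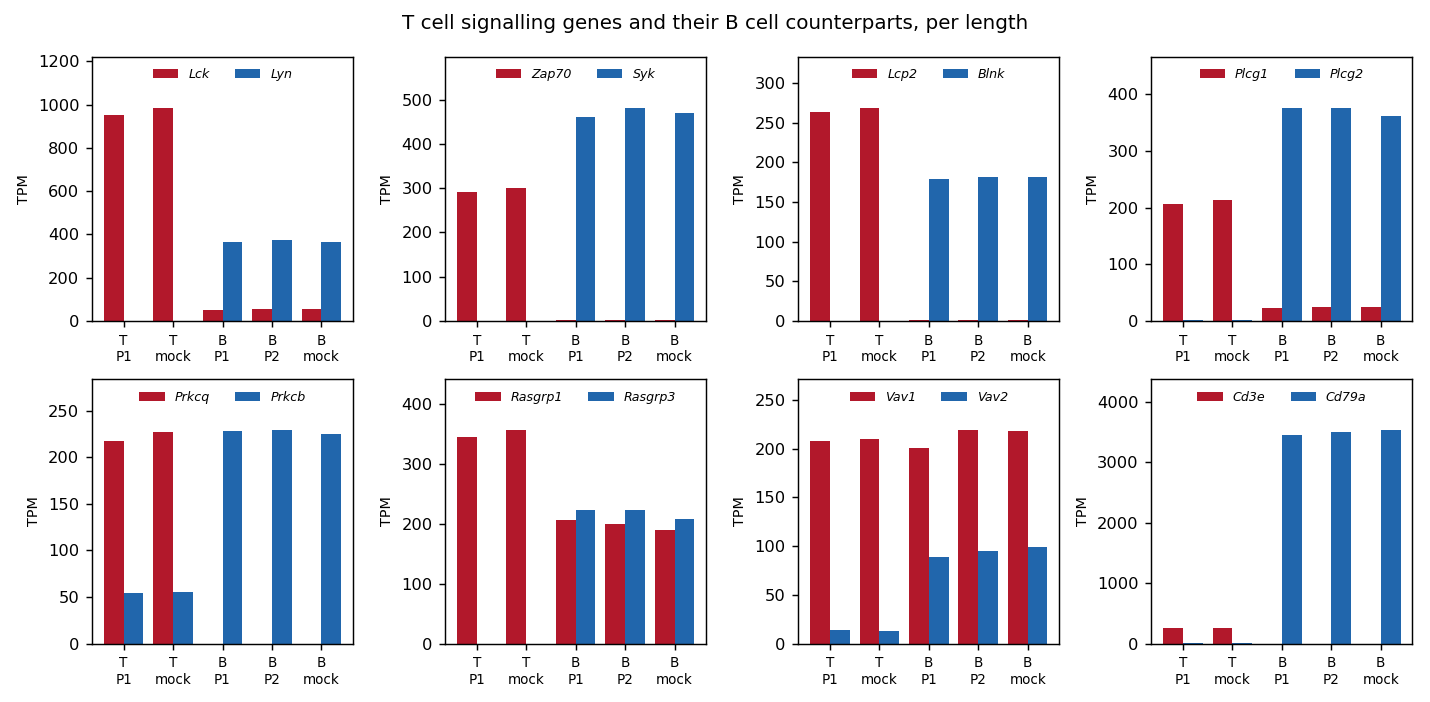
TPM of 8 T cell signalling genes (red) and their B cell counterparts (blue) in the 5 libraries, 1 bar per library, axes from 0 and scaled per panel. In 7 panels the red gene leads in T cells and the blue gene in B cells, with Rasgrp1 close below Rasgrp3 in B cells; Vav1 is above Vav2 in all 5 libraries.

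Where the pathway has a separate B cell version, the counterparts exchanged places between the cell types. Per length, Zap70 was at 291 and 301 TPM in T cells with sgRNA-P1 and mock and its relative Syk at 0.454 and 0.341 TPM, while in B cells with sgRNA-P1, sgRNA-P2 and mock Zap70 was at 2.41, 2.65 and 2.12 TPM and Syk at 461, 482 and 470 TPM. Lcp2 was at 263 and 269 TPM in T libraries with its counterpart Blnk under 0.1 TPM. In B libraries Blnk was at 179 to 182 TPM and Lcp2 under 1 TPM. Plcg1 stood at 207 and 214 TPM in T libraries, 91.0 and 88.0 times Plcg2. In B libraries Plcg2 was 16.4, 15.7 and 15.2 times Plcg1, with sgRNA-P1, sgRNA-P2 and mock. Lck exceeded Lyn in T libraries, and Lyn was 6.97, 6.70 and 6.72 times Lck in the B libraries in that order.

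The exchange was not complete for every pair. Prkcb, the B cell counterpart of Prkcq, was at 54.9 and 55.7 TPM in T cells with sgRNA-P1 and mock, where Prkcq was 3.96 and 4.07 times as high. Rasgrp3 was under 0.1 TPM in T libraries and at 223, 224 and 209 TPM in B cells with sgRNA-P1, sgRNA-P2 and mock, beside Rasgrp1 at 206, 200 and 191 TPM. Vav1 exceeded Vav2 by 15.2 and 15.6 times in T libraries and by 2.26, 2.29 and 2.20 times in B libraries. The list chosen for this comparison held 17 B cell receptor signalling genes. In mock T cells 16 were at least 2-fold lower than in mock B cells (background 12.2%), with a median log2 fold change of -8.16. Of the 17, 6 reached 5 CPM in mock T cells. The others passed the filter only through their B level, so the count is a description. Blk, a Src kinase of B cells, kept 18.6 CPM in mock T cells, against 673 CPM in mock B cells.

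The steps around and below these 35 genes were set against the same background, 12.3% of all genes higher and 12.2% lower in mock T than in mock B cells. Of 26 other proximal signalling genes in the table (27 listed), 6 (23.1%) were at least 2-fold higher and 7 (26.9%) lower, with a median log2 fold change of 0.29. Those with the largest differences were Crtam (6.66), a surface receptor, Dok2 (6.02), a docking protein, Sla2 (5.71), an adaptor that dampens the receptor, and Sh3bp2 (-3.39), an adaptor. Of 37 genes of the calcium, NFAT, NF-kB, phosphoinositide and MAP kinase steps, 8 (21.6%) were higher and 4 (10.8%) lower, with a median of 0.09. Dgka (2.55), which removes diacylglycerol, Ppp3ca (-2.25), a calcineurin subunit, Pdk1 (2.13) and Map2k1 (-1.33), a MAP kinase kinase, had the largest differences. Pdk1, 1 of the 8 higher, is a pyruvate dehydrogenase kinase that belongs to none of these steps and was listed in error. Of 10 inhibitory receptor genes at 5 CPM (11 listed), 8 (80%) were higher and 1, Btla (-2.50), was lower. Of those 8, Ctla4 alone reached 5 CPM in mock B cells (5.38 CPM). The others passed the filter only through their T level, so the 80% is a description. Cd96 (11.85 [9.37, 17.16]), Pdcd1 (6.56 [4.70, 9.61]), Cd200r1 (6.31 [5.21, 8.07]) and Cd101 (5.47 [4.53, 6.60]) led that list. Their mock B levels were 0.0296 to 0.503 CPM, so the sizes are uncertain.

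Whether lowering Pou2f1 changed the pathway in T cells was asked by setting the library with sgRNA-P1 against the mock library. None of the 35 genes differed by 1.5-fold (background 0.06% of 10007 genes higher and 0.05% lower), and 34 lay within 1.1-fold (background 86.8%). This share and the 1.1-fold backgrounds given below for B cells cover all genes at 5 CPM or more. They were not matched for level, and genes of few reads vary more by counting error. The median log2 fold change was -0.02, as it was over all genes (-0.02). Counting intervals lay above 0 for 1 gene (background 4.43%) and below 0 for 10 (background 10.4%). These genes are highly expressed, and among genes at 100 CPM or more, which include 33 of the 35, the background was 7.74% above and 23.5% below. By edgeR over the 5 libraries, with cell type and a single guide term that pools sgRNA-P1 and sgRNA-P2, 0 of the 35 were called for guide against mock, with an adjusted p of 0.9996 for each gene. No test of each guide alone was made. At an unadjusted p of 0.05 that test gave 0 of the 35, and DESeq2 called 0. The edgeR test called 3 of 17581 genes higher (0.0171%) and 2 lower (0.0114%), with 2 residual degrees of freedom.

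**Figure D3:**
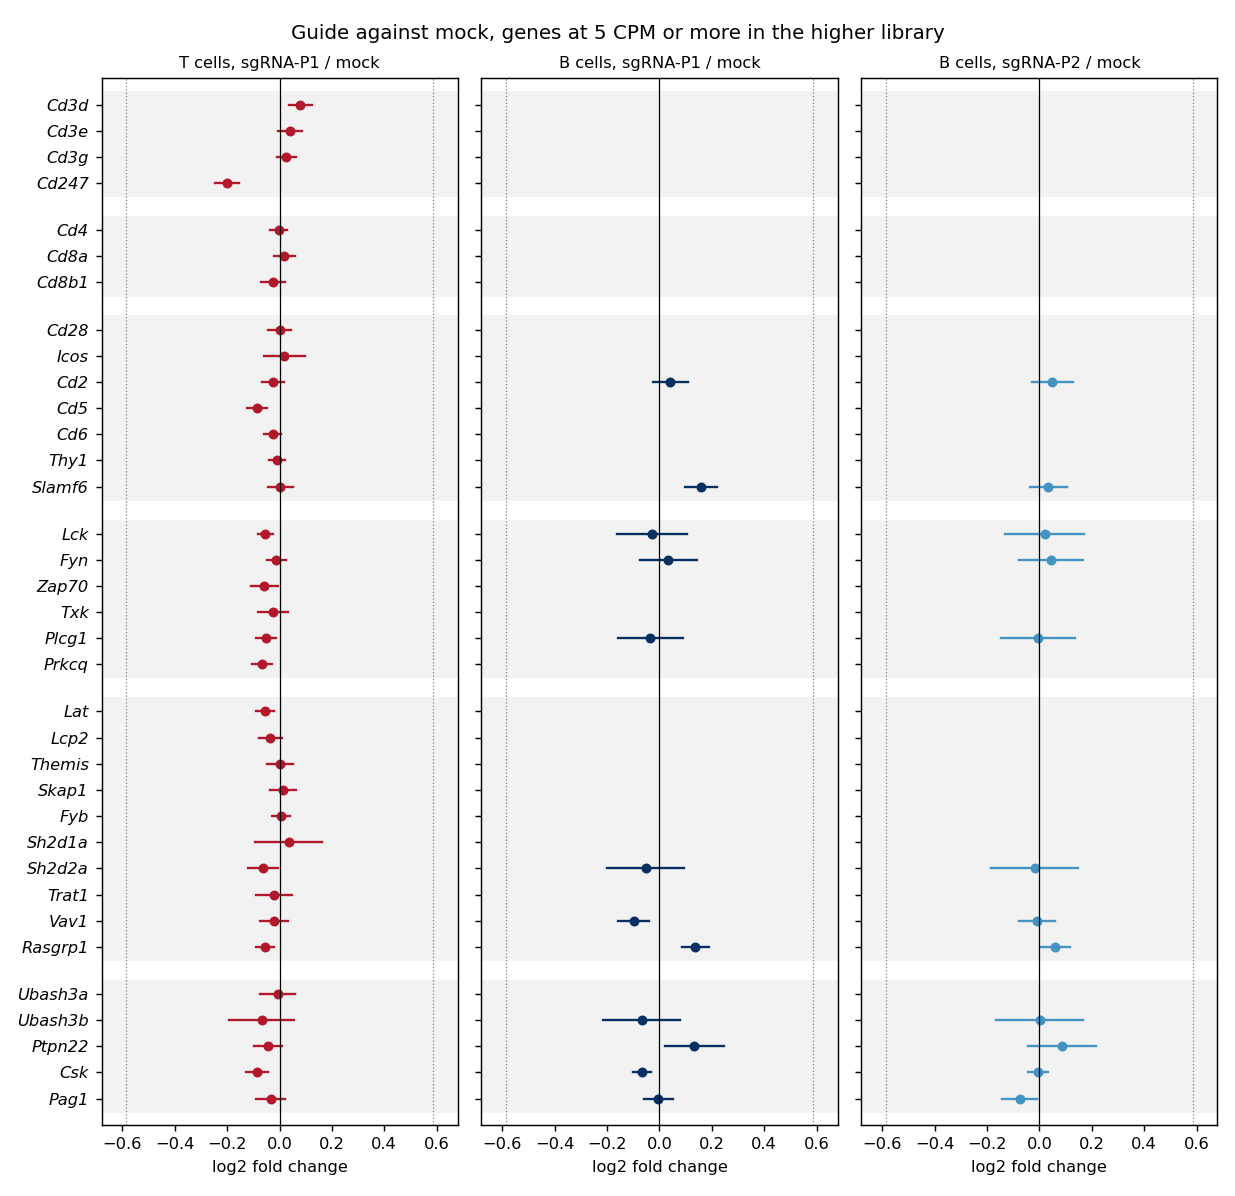
Log2 fold change of guide over mock with its 95% counting interval for each gene at 5 CPM or more, in T cells with sgRNA-P1 (35 genes), B cells with sgRNA-P1 (12) and B cells with sgRNA-P2 (12); dotted lines mark 1.5-fold. No point reaches a dotted line, and Cd247 in T cells lies farthest from 0.

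Cd247 had the largest difference of the 35 in T cells, at 273 CPM with sgRNA-P1 against 314 CPM in mock cells, a log2 fold change of -0.20 [-0.25, -0.15]. The other receptor chains had small differences in the opposite direction. Cd3d was at 0.08 [0.03, 0.12], Cd3e at 0.04 [-0.01, 0.09] and Cd3g at 0.03 [-0.01, 0.06]. Of these 3 the Cd3d interval alone excluded 0, and under total-read scaling those of Cd3e and Cd3g did too. Per length, Cd247 was 0.705 times Cd3e with sgRNA-P1 and 0.832 times Cd3e in mock T cells.

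Cd247 is also the 1 member whose exons lie over those of Pou2f1. On chromosome 1 in the deposited coordinates, Cd247 runs from 165616250 to 165704846 on the plus strand and shares 3007 exonic bases with Pou2f1 on the opposite strand, between 165694224 and 165704634. These are 56.4% of the exonic bases of Cd247 and 18.1% of those of Pou2f1. Whether the reads were counted by strand is not given in the sources used here, so the Cd247 and Pou2f1 values in T cells are uncertain. In B cells, where Pou2f1 was at 86.5 to 157 CPM, Cd247 was at 0.391 to 0.664 CPM. The part of the overlap in the T cell difference of Cd247 was not tested.

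**Figure D4:**
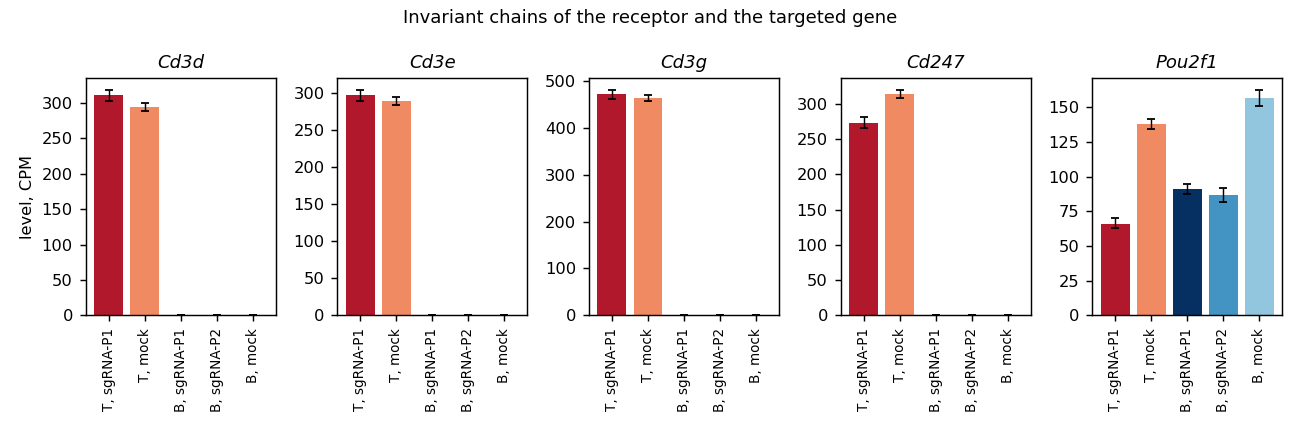
Level in CPM of the 4 invariant chain genes and of Pou2f1 in the 5 libraries; bars are single libraries with 95% Poisson counting intervals, and each axis starts at 0. Cd247 is the chain gene that is lower in T cells with sgRNA-P1 than in mock T cells (273 against 314 CPM), and Pou2f1 is lower in each guide library than in its mock library.

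The other 9 genes with intervals below 0 in T cells all had log2 fold changes between -0.09 and -0.05. Cd5 was at -0.09 [-0.12, -0.05] and Csk at -0.09 [-0.13, -0.05]. Prkcq, Sh2d2a, Zap70, Lat, Rasgrp1, Lck and Plcg1 lay between -0.07 and -0.05. All 6 kinases and phospholipase genes and all 5 restraint genes were below 0, by 0.01 to 0.09 on the log2 scale, where 58.6% of all genes tested were below 0. Of the restraint genes, Csk alone had an interval below 0. Ubash3a (-0.008) changed sign, to 0.0008, after a trend with length and GC content was subtracted. The coreceptors Cd4 (-0.004 [-0.03, 0.03]), Cd8a (0.02 [-0.02, 0.06]) and Cd8b1 (-0.03 [-0.07, 0.02]) had intervals that included 0. So did 6 of the 7 surface receptors, with Cd28 at 0.00 [-0.04, 0.04] and Thy1 at -0.01 [-0.04, 0.02].

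Which genes lay below 0 in T cells changed in part with the processing. After a trend with transcript length and GC content was subtracted, 10 intervals again lay below 0, those of Cd247, Cd5, Lck, Prkcq, Rasgrp1 and Csk among them. Zap70 was then at -0.02 [-0.08, 0.03], Plcg1 at -0.02 [-0.06, 0.01], Lat at -0.03 [-0.07, 0.004] and Sh2d2a at -0.03 [-0.09, 0.02], and these 4 intervals included 0. Those of Cd8b1 (-0.05 [-0.10, -0.004]), Cd2 (-0.04 [-0.09, -0.002]), Lcp2 (-0.05 [-0.09, -0.004]) and Ptpn22 (-0.06 [-0.11, -0.003]) lay below 0 in their place. Cd3d stayed above 0, at 0.06 [0.01, 0.10], and Csk was at -0.05 [-0.09, -0.005].

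Outside the 35 genes, 0 of the 26 other proximal genes and 0 of the 37 downstream genes passed 1.5-fold in T cells with sgRNA-P1. Counting intervals lay below 0 for 3 of the 26 and 15 of the 37, and above 0 for none of either list, where the background was 10.4% below and 4.43% above, or 23.5% and 7.74% among genes at 100 CPM or more. Map2k2 (-0.20 [-0.29, -0.10]) and Mapk3 (-0.16 [-0.28, -0.03]), kinases of the MAP kinase cascade, were the farthest from 0, followed by Nfatc1 (-0.11 [-0.16, -0.05]) and Nfatc2 (-0.11 [-0.18, -0.03]), the calcium-regulated factors. Of the early activation genes, Cd69 (508 against 506 CPM in mock T cells) and Il2ra (117 against 113 CPM) were not lower in the same library. Intervals lay below 0 for 4 of the 9, against the same background. Junb (-0.09 [-0.12, -0.07]), Fos (-0.09 [-0.11, -0.07]), Myc (-0.08 [-0.15, -0.01]) and Nr4a1 (-0.07 [-0.12, -0.02]) were those 4. Their part in the small differences of the pathway was not tested.

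In B cells, the 12 genes at 5 CPM were compared between each guide and mock. With sgRNA-P1, 0 of the 12 differed by 1.5-fold (background 0.477% of 10062 genes higher and 0.258% lower). Slamf6 was at 235 CPM with sgRNA-P1 against 211 CPM in mock cells (0.16 [0.10, 0.22]), Rasgrp1 at 340 against 309 CPM (0.14 [0.09, 0.19]) and Ptpn22 at 67.3 against 61.3 CPM (0.13 [0.02, 0.25]). Vav1 was at 218 CPM with sgRNA-P1 against 233 CPM in mock cells (-0.10 [-0.16, -0.04]), and Csk at 675 against 706 CPM (-0.07 [-0.10, -0.03]). Intervals lay above 0 for these 3 of the 12 genes (background 17.6%) and below 0 for these 2 (background 15.6%). Among genes at 100 CPM or more, which include 6 of the 12, the background was 34.8% above and 22.9% below. Of those 6 genes, 2 lay above and 2 below. Of the 12, 11 lay within 1.1-fold (background 65.1%). Rasgrp1 was the 1 gene of the 12 with intervals on opposite sides of 0 in the T and B cell comparisons of sgRNA-P1 with mock (background 3.33% of 9139 genes).

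The sgRNA-P1 fold changes in B cells ran with transcript composition, with a Spearman correlation across 9703 genes of -0.50 with GC content, given as a description. After a trend with length and GC content was subtracted, the intervals of Rasgrp1 (0.11 [0.06, 0.16]) and Cd2 (0.12 [0.05, 0.19]) lay above 0 and none of the 12 lay below. Slamf6 was then at 0.05 [-0.01, 0.12] and Vav1 at -0.03 [-0.09, 0.03].

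With sgRNA-P2, all 12 genes lay within 1.1-fold of mock (background 79.9%) and 0 passed 1.5-fold (background 0.129% higher and 0.149% lower). This comparison shares its mock library with that of sgRNA-P1. Rasgrp1 was at 322 CPM with sgRNA-P2 against 309 CPM in mock cells (0.06 [0.00, 0.12]), and Pag1 at 237 against 250 CPM (-0.08 [-0.14, -0.01]). Those were the intervals beyond 0, 1 above (background 5.22%) and 1 below (background 6.31%). After the same trend was subtracted, Rasgrp1 was at 0.05 [-0.005, 0.11] and no longer beyond 0, Cd2 was above it at 0.09 [0.01, 0.16], and Pag1 stayed below it at -0.09 [-0.15, -0.02]. Lck (0.02 [-0.13, 0.17]), Fyn (0.04 [-0.08, 0.17]) and Plcg1 (-0.01 [-0.15, 0.13]) had wide intervals at their B cell levels.

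Set directly against each other in B cells, sgRNA-P1 and sgRNA-P2 gave differences within 1.1-fold for all 12 genes (background 72.7%), and 0 passed 1.5-fold (background 0.298% higher and 0.119% lower). Slamf6 (0.12 [0.06, 0.19]), Rasgrp1 (0.08 [0.03, 0.13]) and Pag1 (0.07 [0.01, 0.13]) were above their sgRNA-P2 level in cells with sgRNA-P1, where 13.6% of genes had intervals above 0. Vav1 (-0.09 [-0.15, -0.03]) and Csk (-0.06 [-0.10, -0.02]) were lower, where 9.62% of genes had intervals below 0. The other 7 had intervals that included 0. With the trend subtracted, Rasgrp1 (0.06 [0.01, 0.12]) and Pag1 (0.06 [0.002, 0.12]) stayed above 0, and Slamf6 (0.06 [-0.01, 0.12]), Vav1 (-0.04 [-0.11, 0.02]) and Csk (0.01 [-0.03, 0.04]) had intervals that included it.

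The 23 genes under 5 CPM in B cells could not be compared between guides at this depth. Cd5, the highest of them outside the kinases, had 130, 80 and 70 reads in B cells with sgRNA-P1, sgRNA-P2 and mock, and Zap70 had 102, 64 and 62 reads. Cd3d had 7, 0 and 7 reads in those libraries. The 4 receptor chains summed to 0.830, 0.427 and 0.739 CPM in the same order.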

How the data were processed

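The authors deposited raw read counts, whole numbers, for 56893 genes in 10 columns, 2 for each of 5 groups. HISAT2, featureCounts and the builds hg38 and mm39 are named in the submitters' processing notes. For versions, annotation and strand setting, nothing is given in the sources used here. The columns of a group matched 1 library divided in a fixed proportion (100% of genes within 1 read; mean chi-square 0.00231 to 0.00283 per gene) and were summed; single columns held 11337138 to 41310310 reads. P-values therefore measure only the spread between these libraries.

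Counts were scaled by TMM (factors 0.982 to 1.01; edgeR 4.0.16, R 4.3.3). Fold changes used a prior of 1 read and genes at 5 CPM or more in the higher library. The line was 1.5-fold between guides and 2-fold between cell types. Exact 95% conditional intervals used reads divided by 2, since most small sums were odd, as a pair count with 1 read lost to division gives. TPM used the deposited exon lengths. A 5-library edgeR quasi-likelihood model, tested on simulated data, had cell type and guide as terms; DESeq2 1.42.0 was an alternative. The 35 genes and all lists were chosen with earlier results of these data known. One gene of another list is not reported here. The genes named were the 35, Pou2f1, up to 4 genes per other list by size of difference, and overlapping genes at 5 CPM. Btla, Blk, Prkcb and the other counterparts, Lef1, Ighm and Ncr1 were named after their values were seen. Exons of Cd3e also overlap Gm48719 by 135 bases and those of Plcg1 overlap Zhx3 by 379 bases, so these values are uncertain to that extent. No replicate pairing was usable.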

Additional observations from a re-analysis of the deposited data

Results flagged for a closer look

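Rasgrp1 was marked because the sgRNA-P1 differences from mock went opposite ways in the 2 cell types. In T cells it was at 534 CPM with sgRNA-P1 against 554 CPM in mock cells (log2 fold change -0.05 [-0.09, -0.02]). In B cells it was at 340 CPM with sgRNA-P1 against 309 CPM in mock cells (0.14 [0.09, 0.19]). The difference of the effects, T minus B, was -0.19 [-0.25, -0.13] by counting error. With 1 library per group the difference was not tested. Intervals on opposite sides of 0 were found for 3.33% of 9139 genes and for 1 of the 12 genes compared here. After subtraction of a trend with length and GC content, Rasgrp1 was at -0.06 [-0.10, -0.03] in T cells and 0.11 [0.06, 0.16] in B cells. Ptpn22 (-0.18 [-0.30, -0.05]) and Slamf6 (-0.15 [-0.23, -0.08]) had effect differences of the same sign, T minus B, with T cell intervals that included 0.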

How the results depend on the processing

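No paired analysis was possible because the 2 columns of each group are 1 divided library and no group has replicates. Other scalings, a prior of 5 reads, other filters, single columns and a trend with length and GC content were tried. Of 1128 recomputed fold changes of the 35 genes, 1102 stayed within the counting interval and 26 moved beyond it (24 under the trend, 2 under total reads). Other filters do not alter a fold change, and single columns are parts of 1 library. The values of those settings, 141 in each, could therefore hardly move, and the pooled count does not measure stability. Under the trend, 117 stayed and 24 moved. No value past the 1.5-fold or 2-fold line changed sign. Of the values under those lines, 30, each 0.07 or less in size on the log2 scale, changed sign, 21 of them under the trend, and 3 of these moved beyond their interval: Cd3g in T cells (-0.01), and Csk in B cells for sgRNA-P1 against mock (0.02) and against sgRNA-P2 (0.01). Under the trend, 1 gene, Csk, was 2-fold lower in T than in B cells in the mock pair, and 1 in the sgRNA-P1 pair. With no filter on low values, genes of few reads entered, and counts past 1.5-fold in B cells were 4 higher and 4 lower for sgRNA-P1 against mock, 3 and 5 for sgRNA-P2 against mock, and 6 and 4 for sgRNA-P1 against sgRNA-P2. The counts of intervals beyond 0 were chosen after seeing the data. Those above 0 in T cells with sgRNA-P1 were 2 under DESeq2's size factors and 3 under total reads, and those below 0 were 8 and 7. For the scalings and the trend, the cause was not tested. Under the trend, 0 lay below 0 in B cells for sgRNA-P1 against mock and 0 for sgRNA-P1 against sgRNA-P2. Total reads left 1 above 0 for sgRNA-P1 against sgRNA-P2. Single columns hold fewer reads and widened the intervals, leaving 0 beyond 0 in either direction for sgRNA-P2 against mock, and 1 to 2 above and 1 to 2 below for sgRNA-P1 against sgRNA-P2. The 5-library test called 31 of the 35 higher and 2 to 3 lower under DESeq2, other size factors, no filter and each library left out. In each of those settings 0 were called for the pooled guide term. Counting error limits the guide comparisons of B cells at the levels of Lck and Plcg1.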
